A study of Mus musculus with 54 samples.

Results

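Gene expression was compared between 22-day embryoid bodies (EBs) of 2 control lines of murine CGR8 embryonic stem cells, which are male cells of the 129 strain. The wild-type line (WT) was not transfected. The scrambled line (SCR) carried a plasmid with a non-targeting shRNA, GFP and puromycin resistance, and was kept as a stable polyclonal population after selection with puromycin. The comparison holds 6 of the 54 arrays of the series, 3 SCR arrays against 3 WT arrays, picked by line and day from the sample titles. The remaining arrays cover the same lines on 5 other days and a further line (KD), in which an shRNA was directed against Mageb16. All lines were differentiated in hanging drops, and total RNA was measured on the Affymetrix Mouse Genome 430 2.0 array. SCR and WT therefore share strain, sex and culture protocol and differ in plasmid, shRNA, transfection and selection. Each line was a single population, and an effect of the construct cannot be told apart from a property of the line. Whether the 3 arrays of a group came from separate cultures is not stated in the labels. The p values measure only the spread between arrays of a group, pooled over all 18 groups of the series and not over these 6 arrays alone.

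EBs are aggregates in which embryonic stem cells leave pluripotency and form derivatives of ectoderm, mesoderm and endoderm side by side. Neural progenitors divide and give rise to neurons, which fire through voltage-gated channels and signal through synaptic vesicles and transmitters such as GABA and glutamate, and to glia. The extra-embryonic visceral endoderm secretes apolipoproteins and alpha-fetoprotein early in development, and hepatocytes later make albumin, fibrinogen and other plasma proteins. In a whole EB, fewer cells of a type and less RNA per cell cannot be told apart.

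The values were log2 signals of 30939 probe sets, and the medians of the 6 arrays lay between 6.07 and 6.19. Pearson correlations between arrays were 0.9944 to 0.9972 within WT, 0.9861 to 0.996 within SCR and 0.9453 to 0.9723 between the lines. SCR replicate 1 stood farthest from its group. SCR replicate 3 lay between replicates 1 and 2 for 59.3% of all probe sets, and for 90.8% of the 5456 probe sets on which replicates 1 and 2 were at least 0.5 log2 apart. In WT these shares were 41.6% and 83% of 1339 probe sets. Of all probe sets, replicates 1 and 2 lay between the others for 19.7% and 26.4% in SCR and for 30.8% and 35% in WT. Replicate 3 was also most often between in most other groups, as at 53.8% in WT at day 15, but not in KD at day 22 (32.8%). The cause was not tested, and if replicate 3 is not independent, the errors and p values are too small. Without replicate 3 of both lines at day 22, 2379 probe sets passed the test described next, of which 2282 were shared with the full comparison. The spread of that fit still drew on replicate 3 of the other groups. It therefore cannot show which calls remain if replicate 3 is not independent.

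The term called is used for a probe set whose limma adjusted p was under 0.05 and whose signals differed 2-fold or more. Of 30939 probe sets, 2449 (7.92%) were called, 1800 (5.82%) higher and 649 (2.10%) lower in SCR. With 1 probe set a gene, 1302 of 14104 genes (9.23%) were called, 947 (6.71%) higher and 355 (2.52%) lower in SCR. The median difference over all genes was -0.04 log2. Counts of called members of a gene list are read against these shares and this median below. Genes of neurons and neural progenitors led the rises in SCR, and genes of endoderm and liver led the falls.

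**Figure D1:**
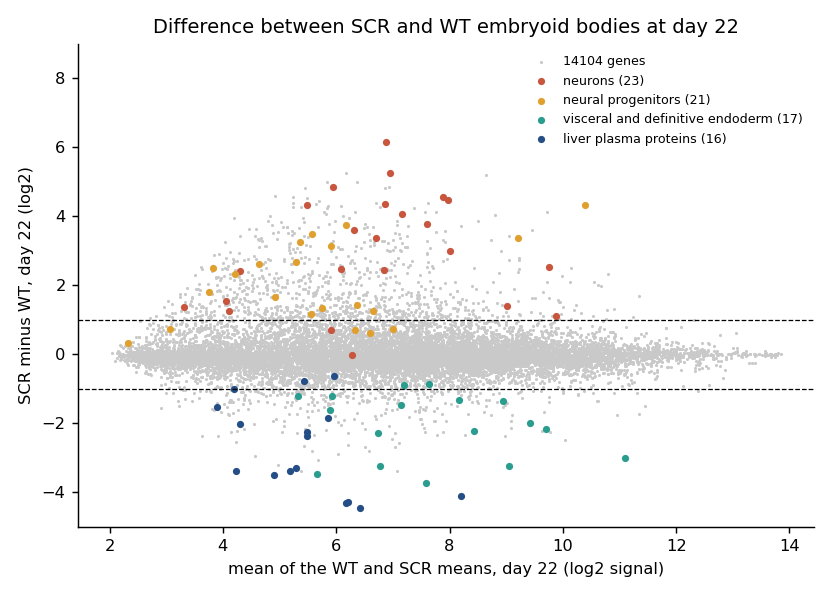
Each point is a gene, with the mean log2 signal of the WT and SCR groups on the x axis and SCR minus WT (log2) on the y axis, and dashed lines mark a 2-fold change. Neuron genes reach 6.16 log2 above 0 and liver plasma protein genes reach 4.45 log2 below 0, while most of the 14104 genes lie between the lines.

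Mageb16, the gene that the KD line targets, was not part of the manipulation of either line. Its signals were 9.39, 9.31 and 9.38 log2 in WT and 9.75, 9.36 and 9.52 log2 in SCR. The groups overlapped, and the difference of 0.18 ± 0.17 log2 (SE, n = 3 arrays a line) had a limma adjusted p of 0.414. In KD EBs of the same day the mean was 7.12 log2.

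The neuron list held 23 measured genes, of which 21 were called higher in SCR, none lower and 2 not called, with a median difference of 3.01 log2. Gad1, the enzyme that makes GABA, differed most of all genes. Its signals were 3.87, 3.72 and 3.79 log2 in WT and 9.54, 10.24 and 10.09 log2 in SCR, a difference of 6.16 ± 0.27 log2 (SE) or 71.7-fold with an adjusted p of 1.33e-21. All 3 SCR arrays were far above the WT arrays, and the WT level was under the lower quartile of its arrays (4.38 log2), where a signal is close to background and the size of a ratio is not exact.

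Dcx encodes doublecortin, a microtubule protein of migrating young neurons. Its signals were 4.43, 4.08 and 4.47 log2 in WT and 8.92, 10.11 and 9.71 log2 in SCR, 38.1-fold higher with an adjusted p of 9.36e-19. Gap43, a growth cone protein, was measured at 5.91, 5.0 and 5.91 log2 in WT and at 9.62, 10.53 and 10.32 log2 in SCR, a difference of 4.55 ± 0.29 log2. It was 23.4-fold higher in SCR. Its WT mean of 5.61 log2 was above the lower quartile but under the medians of the WT arrays (6.07 to 6.13 log2). Map2, which stabilises dendritic microtubules, and Tubb3, the neuronal beta-tubulin, were higher by 4.47 and 4.06 log2. Rbfox3, a splicing factor of mature neurons, and Chga, a granule protein of endocrine cells and neurons, were the members not called, at 0.71 and -0.03 log2.

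Transmitter genes were grouped by kind, and differences between the families were not tested. These families were put together from textbook members after the values had been seen, so that their counts are descriptions. Of 15 genes for GABA synthesis, transport and receptors, 11 were called higher with a median difference of 1.76 log2, among them Gad2 (2.42 log2) and the vesicular transporter Slc32a1 (1.56 log2). Of 17 genes for glutamate transport and receptors, 10 were called higher with a median of 1.41 log2. Slc17a6, the vesicular glutamate transporter of subcortical and young neurons, had signals of 3.56, 3.5 and 3.54 log2 in WT and of 7.78, 8.84 and 8.49 log2 in SCR. Its relative Slc17a7 was not called (-0.09 log2). The receptor subunit Gria2 was higher by 3.55 ± 0.20 log2. None of the 8 genes of acetylcholine and monoamine neurons was called, with a median of 0.34 log2, including Tph2 for serotonin (0.75 log2) and Isl1 of motor neurons (-0.88 log2), although 1 was called lower without SCR replicate 2.

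The machinery of transmission was higher too. Of 19 genes of synaptic vesicles and release, 13 were called higher with a median of 2.36 log2. Rab3c, a vesicle-bound GTPase, was measured at 3.67, 3.24 and 3.7 log2 in WT and at 8.23, 9.23 and 8.91 log2 in SCR, 38.1-fold higher. Snap25, a SNARE of vesicle fusion, differed by 4.33 log2. Of 16 voltage-gated sodium and potassium channel genes, 9 were called higher with a median of 1.19 log2. The largest was Scn3a, a sodium channel of the immature brain, at 4.59 ± 0.19 log2. The host transcript of the neuronal microRNA miR-124, Mir124-2hg, was 28.4-fold higher; the array measured the host transcript and not the mature microRNA. Other genes among the 12 largest rises were the neuronal membrane glycoprotein Gpm6a (5.21 log2), the adhesion molecule Negr1 (5.0 log2), the mitochondrial protein Gdap1 (5.0 log2), the matrix proteoglycan Ncan (4.84 log2) and the neural POU factor Pou3f3 (4.82 log2).

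Of 21 genes of neural progenitors, 16 were called higher, none lower and 5 not called, with a median of 1.82 log2. Fabp7, a lipid carrier of radial glia, had signals of 8.82, 7.64 and 8.23 log2 in WT and of 12.32, 12.79 and 12.57 log2 in SCR, a difference of 4.33 ± 0.31 log2. It was the brightest of the named neural genes in SCR, and its groups did not overlap. Olig1, Lhx2, Zic1, Sox1 and Pax6, all transcription factors of neural progenitors, were higher by 3.74, 3.49, 3.38, 3.27 and 3.15 log2. Nes, the progenitor intermediate filament, was measured at 6.56, 5.35 and 6.02 log2 in WT and at 6.48, 6.86 and 6.74 log2 in SCR and was not called (0.72 log2), and its groups overlapped.

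The regulators of brain regions were grouped into 2 families composed after the values had been seen. Of 14 forebrain regulators 12 were called higher and 1 lower, with a median of 1.67 log2. Lhx9, Dlx1 and Lhx2 differed most, by 3.87, 3.84 and 3.49 log2, and the lower member was Eomes (-1.45 log2), which also acts in the primitive streak. Of 14 midbrain and hindbrain regulators 5 were called higher and 1 lower with a median of 0.56 log2. Nr2f1 was higher by 4.13 log2 and En2 by 2.69 log2, while Atoh1 (0.16 log2) and Egr2 (-0.06 log2) were not called. The difference between the 2 families was not tested. Placing Nr2f1 and Nr2f2 (1.98 log2) with midbrain and hindbrain and Gbx2 (1.67 log2) with forebrain was a choice. The anterior Hox genes, of which 6 of 13 were called higher, were kept as a list of their own. The counts therefore do not rank the brain regions.

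Of 9 genes of the glia list, 5 were called higher, none lower and 4 not called, with a median of 1.38 log2. In a family of astrocyte and radial glia genes, again composed afterwards, 13 of 18 were called higher with a median of 2.15 log2. Aqp4, the water channel of astrocyte endfeet, had signals of 2.91, 2.73 and 2.89 log2 in WT and of 5.94, 7.28 and 7.3 log2 in SCR, 16.0-fold higher. The glutamate uptake carrier Slc1a2 was higher by 4.23 ± 0.21 log2. Gfap and S100b, markers of mature astrocytes, were not called (0.65 and -0.08 log2) and lay under the lower quartile in both lines. Of 9 genes of the oligodendrocyte lineage 3 were called higher, namely Olig1, Olig2 (2.49 log2) and Nkx2-2 (1.08 log2), which are transcription factors, while the myelin genes Mbp (-0.13 log2) and Cnp (0.10 log2) were not called. Of 11 genes of neural crest and pigment cells, Tfap2b (3.70 log2) and Tfap2a (1.41 log2) were called higher. Tfap2a, averaged over its probe sets, differed by 0.99 log2 and was not called.

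**Figure D2:**
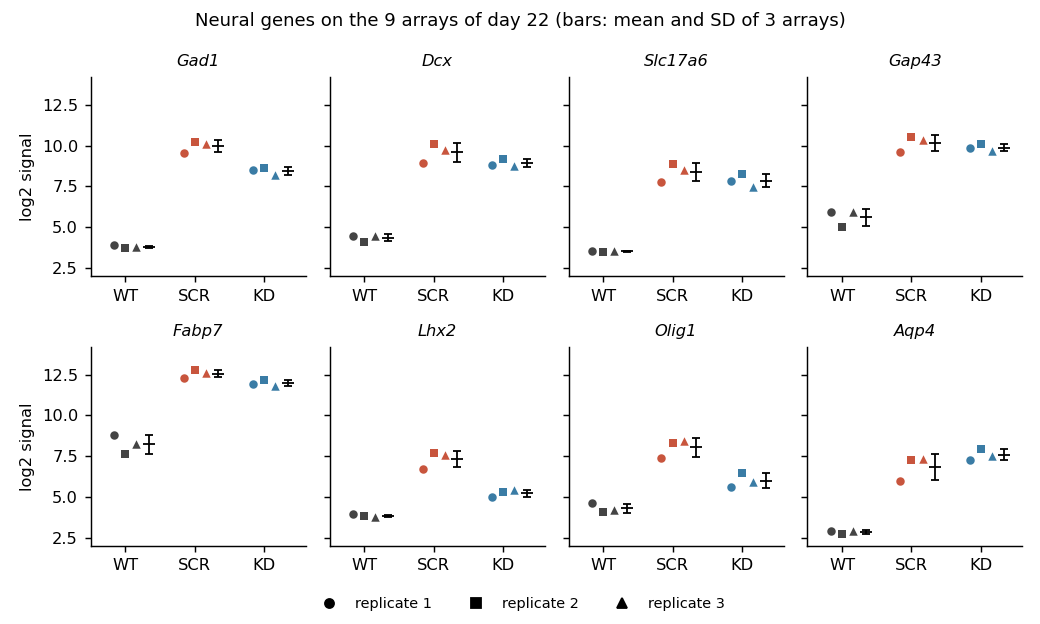
Log2 signals of 8 neural genes on the 9 arrays of day 22, with a panel for each gene, symbols for replicates 1 to 3 and the mean with its SD beside each line (WT, SCR, KD). In every panel the 3 SCR arrays lie above the 3 WT arrays, and SCR replicate 1 is the lowest SCR array, as for Gad1 at 9.54 against 10.24 and 10.09 log2.

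SCR replicate 1 had the lowest mean neural signal of its group. The mean signal of the neuron list was 7.66 log2 on SCR replicate 1, 8.52 on replicate 2 and 8.32 on replicate 3, against 5.27, 5.05 and 5.18 log2 on the WT arrays. Without that array the count of called neuron genes was again 21.

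The falls were led by genes of liver and endoderm. Of 16 plasma protein genes of the liver, 13 were called lower in SCR, none higher and 3 not called, with a median of -2.84 log2. Hpx, the haem-binding plasma protein, fell most of all genes by the mean. Its signals were 6.42, 10 and 9.49 log2 in WT and 3.76, 4.56 and 4.24 log2 in SCR, a difference of -4.45 ± 0.58 log2 (SE) with an adjusted p of 3.43e-08. This SE uses the spread pooled over all groups, while the SD of Hpx was 1.94 log2 over the WT arrays. The groups did not overlap, but WT replicate 1 was far below the other WT arrays. The same array was low for most plasma protein genes: the mean of the list was 5.26 log2 on WT replicate 1, 7.71 on replicate 2 and 7.41 on replicate 3, and 3.88, 4.22 and 4.21 log2 on the SCR arrays. Fitted on the arrays of the compared groups alone, Hpx had an adjusted p of 0.00841 and Hp, haptoglobin, which binds free haemoglobin, one of 0.0567, so that Hp was not called. Without WT replicate 1 the difference of Hpx was -5.56 log2, and all 16 plasma protein genes were called lower.

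The 3 fibrinogen chains, which form the clot, fell together. Fgb was measured at 6.73, 9.33 and 8.98 log2 in WT and at 4.09, 4.03 and 4.11 log2 in SCR, 19.3-fold lower with an adjusted p of 3.06e-10. Fgg fell by 4.30 log2 and Fga fell by 3.38 log2. All 9 SCR values of the 3 chains were under the lower quartile of the SCR arrays, 4.42 log2, so that the sizes are not exact. Alb, serum albumin, was measured at 4.62, 7.17 and 6.68 log2 in SCR and at 8.45, 11.38 and 10.93 log2 in WT. SCR replicate 1 was thus near the lower quartile, while the other SCR arrays were well above it. Alb differed by -4.10 ± 0.58 log2. Its limma adjusted p was 2.17e-07, and 0.0138 when fitted on the arrays of the compared groups alone. Prothrombin (F2) fell by 1.85 log2, while coagulation factor F10 (-1.0 log2), Vtn (-0.78 log2) and the copper carrier Cp (-0.62 log2) were not called. In a wider coagulation family, composed afterwards, 7 of 17 genes were called lower, and F9 (-0.10 log2) and F11 (-0.12 log2) were among the 10 not called.

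The bases before the start of some of these genes are shown because HNF1 factors, known drivers of liver genes, bind sites built on the letters GTTAAT. In RefSeq promoters of the GRCm38.p6 build, 10 of the 12 genes with the largest falls had an entry, and 5 of these (Alb, Fga, Fgb, Serpina1b and Apoc2) held GTTAAT on either strand within the 250 bases before the start. The letters occurred in 6.43% of 32851 promoter entries. The other shares count genes with an entry. They were 606 of 11299 measured genes (5.36%), 28 of 273 genes called lower (10.3%) and 57 of 729 genes called higher (7.82%). GTTAAT was also found for 2 of the 8 genes with an entry among the 12 largest rises. The 100 bases before the start follow for albumin, the fibrinogen chains and the apolipoprotein gene Apoc2, read 5′ to 3′ on the strand of the gene, with GTTAAT or its reverse complement ATTAAC in capitals. The stretches lie at chr5:90460770-90460869 (plus strand) for Alb, chr3:83026053-83026152 (plus) for Fga, chr3:83049864-83049963 (minus) for Fgb, chr3:83007624-83007723 (plus) for Fgg and chr7:19677942-19678041 (minus) for Apoc2.
Alb: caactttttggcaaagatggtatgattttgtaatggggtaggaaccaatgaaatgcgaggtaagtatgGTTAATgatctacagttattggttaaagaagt
Fga: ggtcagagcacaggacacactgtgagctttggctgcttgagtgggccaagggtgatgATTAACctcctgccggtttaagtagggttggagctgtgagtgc
Fgb: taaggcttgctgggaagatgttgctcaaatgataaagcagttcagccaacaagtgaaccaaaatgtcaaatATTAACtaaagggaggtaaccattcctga
Fgg: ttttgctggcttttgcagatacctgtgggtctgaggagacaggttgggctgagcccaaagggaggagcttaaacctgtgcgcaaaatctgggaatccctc
Apoc2: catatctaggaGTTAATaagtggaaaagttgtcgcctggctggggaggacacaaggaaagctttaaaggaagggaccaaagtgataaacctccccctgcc
The letters began 32 bases before the start of Alb, 43 before Fga, 29 before Fgb and 89 before Apoc2, and were not found in this window of Fgg. A match of 6 letters is a description and not a binding site. The E-box CAGCTG, which proneural factors can bind, shares no site with GTTAAT. It was found for 2 of the 8 genes with an entry among the 12 largest rises and for none of the 10 among the largest falls. Of all promoter entries 13% held it. Counted by gene, it occurred for 19.5% of genes called higher, 16.1% of genes called lower and 14.5% of measured genes.

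Of 17 genes of visceral and definitive endoderm, 15 were called lower, none higher and 2 not called, with a median of -1.99 log2. All 17 had 3 SCR arrays below the 3 WT arrays. The share of all genes with such separation is not given here, so this count is not read as a result. Such separation was not rare, as it was also seen for 5 of 10 commonly used reference genes and 6 of 17 genes of DNA replication and mitosis. Apob, the structural protein of lipoprotein particles, had signals of 9.44, 9.67 and 9.27 log2 in WT and of 5.33, 6.0 and 5.83 log2 in SCR, a difference of -3.74 ± 0.37 log2. Here WT replicate 1 did not stand apart. Rbp4, the retinol carrier, was measured at 10.34, 10.88 and 10.8 log2 in WT and at 7.18, 7.64 and 7.45 log2 in SCR, 9.51-fold lower with an adjusted p of 1.41e-11. Afp, alpha-fetoprotein, remained one of the brighter endoderm genes in SCR, at 8.73, 10.29 and 9.77 log2 against 12.29, 12.9 and 12.64 log2 in WT. The endocytic receptor pair of visceral endoderm, Cubn and Amn, differed by -1.36 and -1.46 log2, and their partner Lrp2 was not called (-0.86 log2). Of 13 apolipoprotein genes and their assembly factors, composed as a family afterwards, 8 were called lower with a median of -1.40 log2, among them Apoa1 (-3.23 log2) and Mttp, which loads lipid onto apolipoprotein B (-1.40 log2), while Apoe (-0.80 log2) was not called.

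Transcription factors of this lineage were given as a family of their own, composed afterwards. Sox17, Gata6, Foxa3, Hnf4a, Foxa2 and Gata4 differed by -2.23, -1.92, -1.83, -1.61, -1.31 and -1.10 log2, which made 6 of 16 hepatic and endodermal factors, with a median of -0.25 log2. Gata6, which sets up primitive endoderm, had signals of 8.71, 8.61 and 8.75 log2 in WT and of 6.91, 6.62 and 6.78 log2 in SCR. Gata6 and Sox17 already differed by -1.15 and -0.99 log2 in undifferentiated cells. Cebpa (0.06 log2), Onecut1 (0.26 log2) and Prox1 (0.43 log2), regulators of hepatocytes, were not called.

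**Figure D3:**
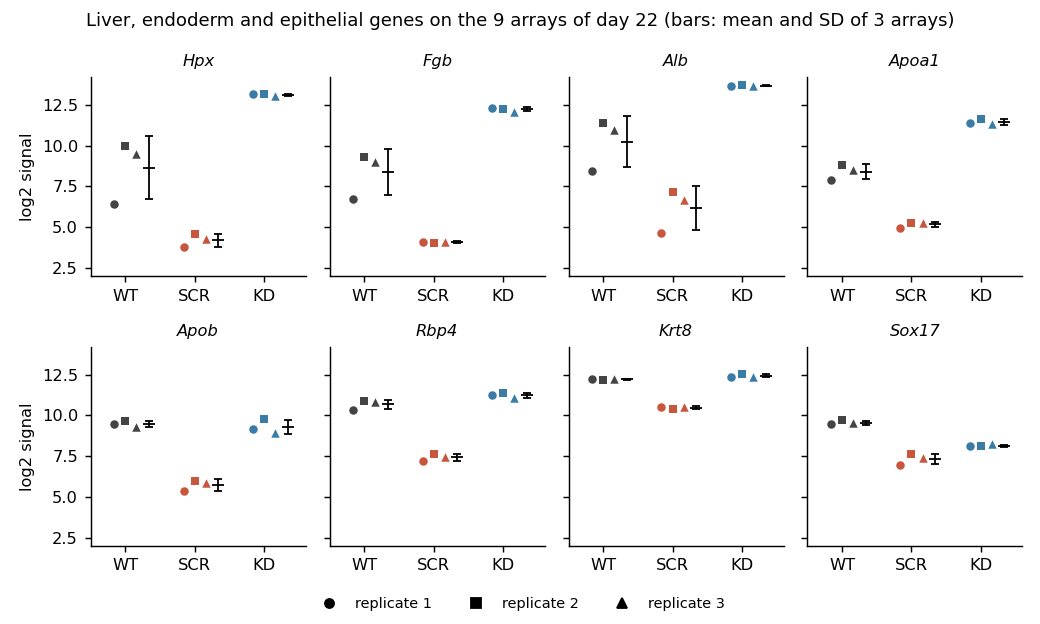
Log2 signals of 8 liver, endoderm and epithelial genes on the 9 arrays of day 22, with symbols for replicates 1 to 3 and the mean with its SD beside each line. WT replicate 1 is low for Hpx (6.42 log2), Fgb (6.73 log2) and Alb (8.45 log2) but not for Apob, Krt8 or Sox17, and the 3 SCR arrays lie below the 3 WT arrays in every panel.

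Of 16 genes of simple epithelium 9 were called lower, none higher, with a median of -1.09 log2. Krt8, the keratin of the first embryonic epithelia, was measured at 12.22, 12.17 and 12.24 log2 in WT and at 10.51, 10.37 and 10.53 log2 in SCR, 3.34-fold lower with an adjusted p of 5.32e-11. Krt8 already differed by -1.39 log2 in undifferentiated cells, and its change from day 0 to day 22 was not called (-0.35 log2). Krt19 and Krt7 differed by -2.14 and -1.83 log2 and the tight junction protein Cldn7 by -1.66 log2. In undifferentiated cells these 3 differed by -1.01, -0.48 and -0.29 log2. Cdh1 (-0.68 log2) and Epcam (-0.42 log2), which pluripotent cells also express, were not called. Of 16 genes of gut and stomach epithelium 5 were called lower with a median of -0.82 log2. Gkn2, a secreted protein of the gastric mucosa, had signals of 9.05, 8.47 and 8.74 log2 in WT and of 5.87, 4.89 and 5.4 log2 in SCR. The prochymosin gene Cym fell by 2.08 log2 but was not called in a fit on the compared arrays alone (limma adjusted p = 0.0581). Among genes of stratified epithelium, 1 of 16 was called (Perp, -1.15 log2, and already -1.03 log2 in undifferentiated cells).

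Of 20 endothelial genes 5 were called lower with a median of -0.42 log2. Besides Sox17, which endothelium shares with endoderm, these included the VEGF receptor Flt1, at 8.31, 8.23 and 8.4 log2 in WT and at 6.58, 6.69 and 6.63 log2 in SCR, and the surface protein Emcn (-1.44 log2). Of 23 genes of the cardiac sarcomere and calcium handling, 3 were called lower (Myl2, Myl7 and Tnni3, at -1.29, -1.08 and -1.03 log2) and 1 higher, with a median of -0.29 log2. The higher member was Slc8a1 (2.29 log2), a sodium-calcium exchanger that neurons also express. Tnni3 and Myl7 were near the 2-fold limit, and without SCR replicate 2 only 1 gene of the list was called lower. Tnnt2 (-0.37 log2), Actc1 (0.45 log2) and Myh6 (-0.55 log2) were not called, and their groups overlapped. Among cardiac and lateral mesoderm regulators, Tbx20 was measured at 5.63, 6.21 and 6.3 log2 in WT and at 2.88, 3.49 and 2.89 log2 in SCR, 7.78-fold lower, and 4 of 14 were called lower (2 without WT replicate 1). The 2 called higher, Smarcd3 (2.28 log2) and Mef2c (1.12 log2), also act in neurons.

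Of 10 genes of embryonic and adult red cells 2 were called lower and 1 higher, with a median of -0.40 log2. The mean over these genes was 5.32, 5.04 and 5.22 log2 on the WT arrays and 4.31, 4.78 and 4.65 log2 on the SCR arrays, without overlap. Embryonic globin Hbb-bh1 differed by -2.80 ± 0.37 log2. The globin Hbb-y, at 7.81, 5.9 and 7.01 log2 in WT and 3.25, 5.83 and 5.09 log2 in SCR, was called at -2.18 log2 but differed by -0.99 log2 (limma adjusted p = 0.137) without replicate 1 of both lines. The difference of these 2 globins changed sign between days. Hbb-bh1 and Hbb-y differed by -1.25 and -1.1 log2 at day 12 and were higher in SCR by 2.7 and 2.88 log2 at day 15. Tal1, a factor of blood and of some neurons, was higher by 1.94 log2 at day 22. Of 18 genes of macrophages and leukocytes 3 were called lower (1 without SCR replicate 2), with a median of -0.03 log2, and of 24 genes of mesenchyme and extracellular matrix 1 was called higher (Dcn, 1.16 log2), with a median of 0.11 log2. The mean over the macrophage list was 5.31, 5.25 and 5.26 log2 on the WT arrays and 4.87, 5.25 and 5.12 log2 on the SCR arrays, so that the highest SCR array reached the lowest WT array.

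Anterior Hox genes, which pattern hindbrain and neck, were called higher in 6 of 13 cases with a median of 0.36 log2. Hoxb5 had signals of 3.55, 3.25 and 3.4 log2 in WT and of 5.41, 6.38 and 6.49 log2 in SCR, 6.47-fold higher, and Hoxb3 was higher by 2.39 log2. Hoxa5, Hoxa4 and Hoxb4 were not called (0.17, 0.18 and 0.36 log2). Of 10 posterior Hox genes none was called higher and Hoxd13 was called lower at -1.05 log2, a call lost without SCR replicate 2.

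The pluripotency genes were checked against the label of a 22-day EB. Their mean signal was 10.13, 10 and 10.08 log2 on the WT arrays and 10.1, 9.53 and 9.81 log2 on the SCR arrays, against means of 10.87 and 10.88 log2 in the undifferentiated cells of the lines. Pou5f1 had signals of 11.2, 11.04 and 11.17 log2 in WT and of 11.33, 10.48 and 10.97 log2 in SCR. Both lines thus showed high signals of pluripotency genes after 22 days. In WT the mean was lower at day 4, as given below, so that the signal had not been steady in this line. Of 22 such genes 1 was called, Tbx3 at -1.29 log2, and the median was -0.17 log2. Of 16 genes of primed epiblast and primitive streak, Fgf8, Eomes and Gsc were called lower (-1.60, -1.45 and -1.44 log2).

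Within the Mage family, 4 of 8 measured genes were called higher with a median of 0.88 log2. Magee1 was measured at 5.26, 5.06 and 4.78 log2 in WT and at 7.8, 8.81 and 8.28 log2 in SCR, and the neuronal genes Ndn and Magel2 were higher by 2.09 and 1.10 log2. Of 18 imprinted genes Ndn was called higher, and Plagl1 (-2.62 log2), Phlda2 (-1.49 log2) and Slc38a4 (-1.39 log2) were called lower. In undifferentiated cells Plagl1 and Slc38a4 already differed by -1.55 and -1.31 log2, and Phlda2 by 0.09 log2. Plagl1 differed more at days 12 and 15 than at day 22, by -7.45 and -5.21 log2. At day 22, 1 of its 2 probe sets was called. Because SCR carries an shRNA, genes of small RNA processing and of the interferon response were examined. Of 13 genes of small RNA processing 1 was called, Ago4 at 1.54 log2, and of 17 interferon response genes 1 was called, Usp18 at -1.59 log2. None of 17 genes of DNA replication and mitosis (median -0.14 log2), 7 drug efflux pumps (-0.41 log2) or 10 commonly used reference genes (-0.10 log2) was called. Among 4 measured Y-linked genes Uba1y was higher by 1.51 log2 and Uty (0.95 log2), Eif2s3y (0.27 log2) and Kdm5d (-0.21 log2) were not called. In the lists for smooth muscle, skeletal muscle, cartilage and bone, adipocytes, foregut organs, trophoblast, germ line, stress responses and hypoxia, 0 to 2 members of each were called. Among these were the fatty acid carrier Fabp4 (-2.03 log2), the hormone Sst (1.71 log2), which neurons also make, the cartilage and glial factor Sox9 (1.65 log2), and Plet1 of trophoblast (-1.55 log2).

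**Figure D4:**
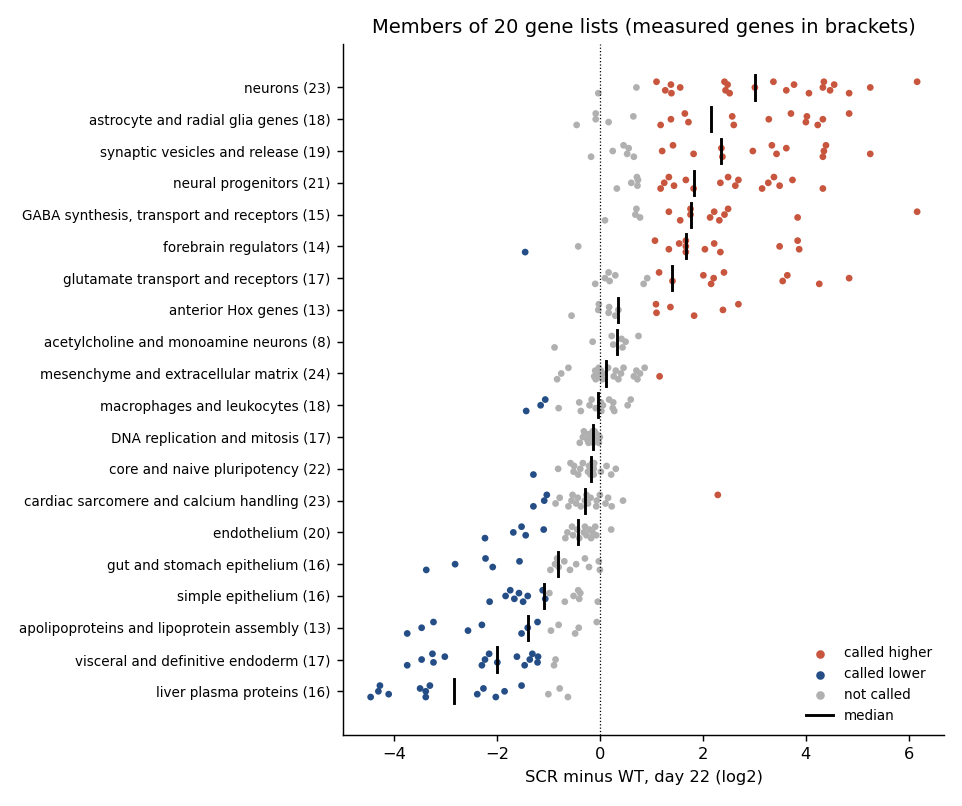
SCR minus WT at day 22 (log2, x axis) for every measured member of 20 gene lists, coloured by call, with a bar at the median of the list. The medians run from 3.01 log2 for neurons to -2.84 log2 for liver plasma proteins, and lists such as DNA replication and core pluripotency sit near 0.

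SCR and WT were also compared in undifferentiated cells and in EBs of 12 and 15 days. EBs of 2 and 4 days were sampled as well, and only their list means are given here, with no test. In undifferentiated cells 193 probe sets were called between SCR and WT. The count was 1075 after 12 days, 1964 after 15 days and 2449 after 22 days. The change of the SCR and WT difference from day 0 to day 22 was called for 2605 probe sets (8.42%), 1907 toward SCR and 698 toward WT. From day 12 to day 22 it was called for 2292 probe sets (7.41%), 1795 toward SCR and 497 toward WT.

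Some lists lay apart at day 4. Cardiac and lateral mesoderm regulators averaged 7.5 ± 0.13 log2 in WT and 4.4 ± 0.072 log2 in SCR (SD over the arrays of a group), against 4.55 and 4.51 log2 at day 2. Pluripotency genes averaged 8.04 ± 0.19 log2 in WT and 9.55 ± 0.05 log2 in SCR at day 4, and neuron genes 4.88 ± 0.071 and 5.63 ± 0.017 log2. The median difference of the neuron list was 0.03 log2 in undifferentiated cells and 1.02, 1.83 and 3.01 log2 in EBs of 12, 15 and 22 days, and the change from day 12 was called upward for 19 of 23 genes. Gad1 differed by 0.82 log2 at day 12 and changed by a further 5.34 ± 0.39 log2 by day 22 (limma adjusted p = 3.02e-14). Neural progenitor genes had medians of 1.17, 2.00 and 1.82 log2 at days 12, 15 and 22, and Zic1 differed by 4.09 log2 at day 12 and 3.38 at day 22. Endoderm genes averaged 5.61 ± 0.14 log2 in WT and 4.58 ± 0.041 log2 in SCR at day 4, and had median differences of -0.33 log2 in undifferentiated cells and -1.83, -2.76 and -1.99 log2 on the same 3 days. Plasma protein genes had medians of -0.88 log2 at day 12 and -3.70 at day 15, as their mean signal in WT rose from 5.1 log2 at day 12 to 8.02 at day 15.

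The macrophage and mesenchyme lists ran the other way. Their medians were -2.29 and -1.09 log2 at day 12 and -0.03 and 0.11 log2 at day 22. In WT the mean of the macrophage list went from 7.78 ± 0.17 log2 (SD, n = 3) at day 12 to 5.27 ± 0.03 log2 at day 22, and in SCR from 5.54 ± 0.10 to 5.08 ± 0.20 log2. The mean of the mesenchyme list went from 8.5 ± 0.07 to 6.95 ± 0.04 log2 in WT, and it was 7.17 ± 0.10 and 7.13 ± 0.07 log2 in SCR. The WT means of both lists were lower at day 22 than at day 12 by more than the SD, and the SCR means moved less. The change of the difference was called upward for 12 of 18 macrophage genes and 14 of 24 mesenchyme genes.

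**Figure D5:**
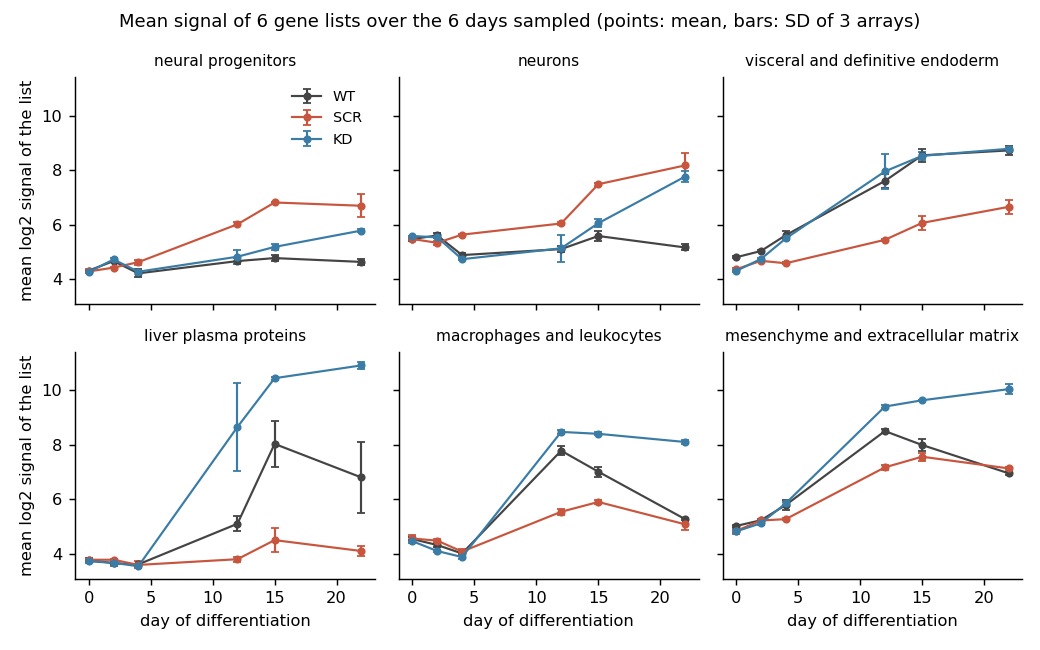
Mean log2 signal over the members of 6 gene lists (y axis) by day of differentiation (x axis) in WT, SCR and KD, as mean and SD of 3 arrays. The neuron list separates SCR from WT up to day 22, whereas the macrophage and mesenchyme lists of the 2 lines lie apart at day 12 (7.78 and 5.54 log2 for macrophages) and close at day 22.

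The KD arrays of day 22 are given beside these values for scale, and both comparisons share the 3 WT arrays. The neuron list had a median of 3.01 log2 in SCR minus WT and of 2.68 log2 in KD minus WT. For forebrain regulators the medians were 1.67 and 0.50 log2, with Lhx2 at 3.49 and 1.40 log2. For plasma proteins they were -2.84 and 4.33 log2, for gut and stomach epithelium -0.82 and 3.54 log2, and for mesenchyme and matrix 0.11 and 3.35 log2. Alb had a mean of 10.25 log2 in WT, 6.16 in SCR and 13.66 in KD, so that WT lay between the other lines for this gene.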

How the data were processed

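Total RNA of EBs was amplified and hybridised to Affymetrix Mouse Genome 430 2.0 arrays. Per the labels, the deposited log2 values were made by the authors with RMA (background correction, quantile normalization and probe summary) in Expression Console and Partek 6.6, whereas R Bioconductor is given for RMA in the study's methods. RMA shrinks differences of dim probe sets, and signals under the lower quartile of the arrays were taken as close to background. Values lay between 1.65 and 14.03 log2, and no further normalization was applied. Line, day and replicate number came from the sample titles.

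The platform annotation gave 25596 probe sets a single symbol, 685 several and 4658 none. A gene was represented by its own probe set with the highest mean over all arrays. In R 4.3.3, limma 3.58.1 fitted 18 group means on all 54 arrays, as in the study's use of limma, with moderated variances. The Benjamini and Hochberg adjustment of each contrast ran over its 30939 probe sets. Errors of differences are moderated standard errors, and the number of arrays limits the precision. The pipeline was tested on simulated data first.

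Named genes were Mageb16, the 12 largest rises and the 12 largest falls without overlap, up to 4 called members of each list and genes named in the study, and other genes were named from the lists after their values had been seen. The members and the 48 gene lists were chosen with earlier results of these data known, and 12 of the lists were composed after the values of this comparison had been seen. Lists are described by counts and medians without a test. Array deviations from the group mean were correlated between the lines. With the same replicate number r was 0.15, 0.108 and 0.178 for replicates 1, 2 and 3, and with different numbers it was -0.148 to 0.0713. Deviations from a shared mean are not independent of each other. The numbers were treated as pairing the arrays only in an alternative fit. What the number stands for is not stated. Promoters came from RefSeq (GRCm38.p6).

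Alternatives covered normalization, probe set filter and summary, variance model, weights per array, a test against 2-fold, the arrays fitted and leaving out arrays. Arrays without replicate 1 or replicate 3 of both lines were tried after seeing the data.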

Additional observations from a re-analysis of the deposited data

Results flagged for a closer look

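The difference between SCR and WT was not the same on all days. A test of the change itself called 2605 probe sets between day 0 and day 22 and 2292 between day 12 and day 22.

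Some genes were called lower in SCR at day 12 and higher at day 22, or the reverse, with the change called as well. There were 30 such genes, and the 6 with the largest changes are given here. Cavin2, a coat protein of caveolae, differed by -3.31 log2 at day 12 and by 2.20 log2 at day 22, a change of 5.51 log2. Its SCR signals at day 22 were 4.84, 6.93 and 6.22 log2 against 4.02, 3.59 and 3.77 log2 in WT. Ednrb, the endothelin receptor of neural crest and astrocytes, changed by 5.2 log2 and Lrrn3, a neuronal leucine-rich repeat protein, by 5.19 log2. Ppp2r2b, a brain subunit of protein phosphatase 2A, changed by 5.16 log2. Nfix, a nuclear factor I gene of glial development, changed by 4.82 log2, and its relatives Nfia and Nfib were among the 30 genes. Gdf10, a ligand of the TGF-beta superfamily, changed by 4.56 log2, and its SCR signals of 5.27, 7.59 and 6.86 log2 at day 22 were widely spread.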

How the results depend on the processing

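No result changed direction among the counts and named genes that were called. Over quantile normalization, centring of each array, the trend and robust variance model, array weights and a fit on the compared groups alone, 2426 to 2662 probe sets were called at day 22. A fit with a replicate block called 2449, of which 2448 were shared with the fit without it, and it changed no call of a named gene. Restricting the test to the brightest 60% of probe sets left 1146 calls (766 higher, 380 lower) at day 22, 1240 (836 and 404) for the change from day 0 and 980 (714 and 266) for the change from day 12, since dim probe sets were not tested. The neuron list then had 12 calls, neural progenitors 5, GABA genes 1 and plasma proteins 7. A test against a 2-fold change (treat) called 1203 (1030 higher, 173 lower) at day 22, 942 (846 and 96) for the change from day 0 and 767 (725 and 42) for the change from day 12. It kept 17 neuron, 11 neural progenitor, 8 endoderm and 9 plasma protein genes and lost 37 named genes. With each array left out in turn the count at day 22 was 2211 to 2887 (1571 to 2176 higher, 594 to 755 lower), for the change from day 0 2447 to 2957 (1723 to 2265 and 628 to 832), and for the change from day 12 2201 to 2583 (1600 to 2172 and 411 to 691). Without replicate 1 of both lines, chosen after seeing the data, 2971 probe sets were called. Averaged over all probe sets of the gene, Tfap2a, Mef2c, Laptm5 and Dcn were not called (0.99, 0.75, -0.61 and 0.56 log2). Where a signal is near background in WT or SCR, the size of a difference is not exact.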
